A study of Mus musculus with 6 samples.

Results

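Interferon-stimulated genes were followed in biopsies of mouse skin and chemically induced skin tumors, through a list of 37 named genes. A probe belonged to the list when it was not a control spot and its gene name on the array was one of the 37. All 37 names were found, on 48 probes. Of the 37 genes, 36 had a probe that passed the array software's background test on 3 or more of the 6 arrays (called well above background here), and these entered the tests, among 24757 features in all. Oas1g, one of the oligoadenylate synthetase genes, was not well above background on any array with either of its probes and has no further values.

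Interferons are secreted proteins that cells release on sensing viral or other foreign nucleic acid, or, in the case of interferon-gamma, that activated T and natural killer cells release. Type I interferons signal through Jak1 and Tyk2 to a complex that includes Stat2 and Irf9 and binds the interferon-stimulated response element. Interferon-gamma signals through Jak1 and Jak2 to genes that carry the gamma-activated site. Many antiviral effectors answer mainly to type I interferon, while Cxcl9, the guanylate-binding proteins and the immunity-related GTPases are known for strong responses to interferon-gamma, although the target sets overlap. In skin, keratinocytes and resident immune cells both make and answer interferons.

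The samples were 6 biopsies from female mice of the inbred strain FVB/N. Healthy skin (3 biopsies) had been painted with the solvent acetone. The tumor biopsies (3) were labelled as cutaneous squamous cell carcinoma. They came from a multistage carcinogenesis protocol in which the mutagen DMBA was followed by the phorbol ester PMA (also called TPA) for 6 weeks, then by more DMBA and 14 further weeks of PMA. Tissue was collected at various times of the protocol, the labels give no age or time for a biopsy, and nothing says that the biopsies came from separate mice, so a p-value here reflects the spread of these biopsies, which may be technical in part. Bulk biopsies hold many cell types, so fewer cells of a type and less RNA per cell cannot be told apart. Each RNA was hybridised to 1 one-colour array on the same slide. Levels below are log2 signals relative to the 75th percentile of their array, so 0 is a probe at that percentile, and levels of different genes are not compared because probes differ in brightness. Keratinocyte markers were measured in every biopsy (7 of 7 tested, well above background on all arrays).

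The arrays differed in quality in ways that bear on dim members. Healthy skin 3 was the dimmest array, and tumor 1 had a median background of 85 against 23 to 26 on the others. Of the 36 members, 31 were well above background on all 6 arrays. Ifit2, Mx1, Mx2 and Ifi44 fell short on tumor 1 alone, and Oas3 fell short on tumor 1 and healthy skin 3. Tumor 1 was the highest tumor for 2 of 36 members, against 11436 of all 24757 features. It was the lowest tumor for 27 of 36 members, and the share of all features lowest there was not counted. Whether the background of tumor 1 lowered the members was not tested. Healthy skin 1 and 2 lay in the first row of the slide, and healthy skin 3 and the tumors in the second.

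Promoter windows from RefSeq (GRCm38.p6, 250 bases before to 50 bases after a start) were matched by symbol for 31 of the 37 members. The core of the response element, searched as GAAANNGAAA and as TTTCNNTTTC on the other strand, was found for 16 of 31 members (51.6%), against 3.99% of 27025 genes in the same table. The gamma-activated core TTCNNNGAA, which reads the same on both strands, was found for 9 of 31 (29.0%), against 9.55% of all genes. The response element was present in 8 of 15 antiviral effectors, in 4 of 4 GTPases, in 2 of 2 RNA sensors matched, in Cxcl10 and in Stat2. For 14 members it lay before a start and for 2, Ddx58 and Ifih1, it was found after the start alone. Matches overlapped one another in 6 members, Isg15 among them, and in Bst2 a response element overlapped a gamma-activated core. The list was made of genes already known to answer interferon, so these shares describe its make-up. A match does not show that a factor binds there.

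Stretches before the start of 6 members are shown because these genes carry the array patterns described further on, 3 antiviral effectors first and then 2 GTPases and a chemokine. Each is written 5′ to 3′ on the strand of its gene, in GRCm38.p6, with the matches to the response element core in capitals.
Isg15 (chr4:156200845-156200914, minus strand): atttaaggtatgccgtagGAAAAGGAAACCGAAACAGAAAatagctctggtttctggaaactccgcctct
Ifit1 (chr19:34640774-34640843, plus strand): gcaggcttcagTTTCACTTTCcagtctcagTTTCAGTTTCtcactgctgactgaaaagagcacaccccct
Ifit3 (chr19:34583377-34583446, plus strand): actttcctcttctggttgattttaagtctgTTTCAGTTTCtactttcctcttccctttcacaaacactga
Gbp2 (chr3:142620574-142620643, plus strand): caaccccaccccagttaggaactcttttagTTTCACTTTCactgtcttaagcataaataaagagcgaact
Igtp (chr11:58199492-58199555, plus strand): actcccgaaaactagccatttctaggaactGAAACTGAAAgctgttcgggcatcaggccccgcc
Cxcl10 (chr5:92349063-92349132, minus strand): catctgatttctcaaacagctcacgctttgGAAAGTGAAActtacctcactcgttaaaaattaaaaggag
In Isg15 the 3 matches overlap to give a run of 22 bases, the last of them beginning 66 bases before the start. Ifit1 has matches beginning 104 and 85 bases before its start, both on the opposite strand. The match of Igtp begins 34 bases and that of Gbp2 59 bases before the start, while that of Cxcl10 lies 213 bases before it. Over all members, the nearest match began within the 100 bases before a start in 9 genes.

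**Figure D1:**
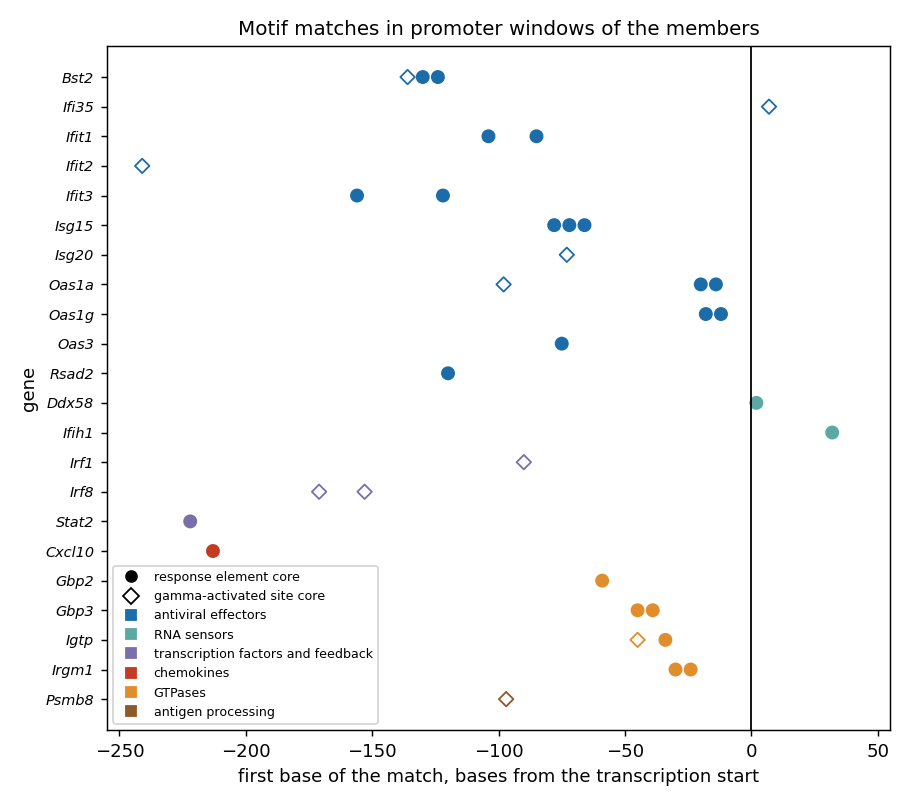
Position of motif matches in the promoter windows of the members that hold any, in bases from the transcription start (x axis) by gene (y axis); filled circles are the interferon-stimulated response element core and open diamonds the gamma-activated core, coloured by role. The GTPases have response elements 24 to 59 bases before the start, whereas the match of Cxcl10 begins 213 bases before it.

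Tumors were compared with healthy skin to ask which members differ between the tissues. The module did not move one way. Isg20, Oasl1 and Irf1 were higher in tumors, Oas2 and Usp18 were lower, and the other 31 members tested did not pass. The called share was 5 of 36 (13.9%), where the same limma fit with Benjamini-Hochberg adjustment called 25.9% of all features (10.3% higher and 15.6% lower). At an unadjusted limma p under 0.05 there were 11 of 36 members. The share of all features at that cut was not counted, here or in the fits below. It is at least the 25.9% that passed after adjustment. The groups did not overlap for 10 of 36 members (27.8%), against 49.7% of all features. Estimates were positive for 13 members and negative for 23, with a median log2 fold change of -0.29 against -0.16 over all features. The sign of the members' median turned without healthy skin 1 (0.29) and stayed negative without any other single array (-0.80 to -0.021). It also turned with scaling to spike-in controls (0.60, where the median of all features was 0.73) and when slide row was fitted as a block (0.35).

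**Figure D2:**
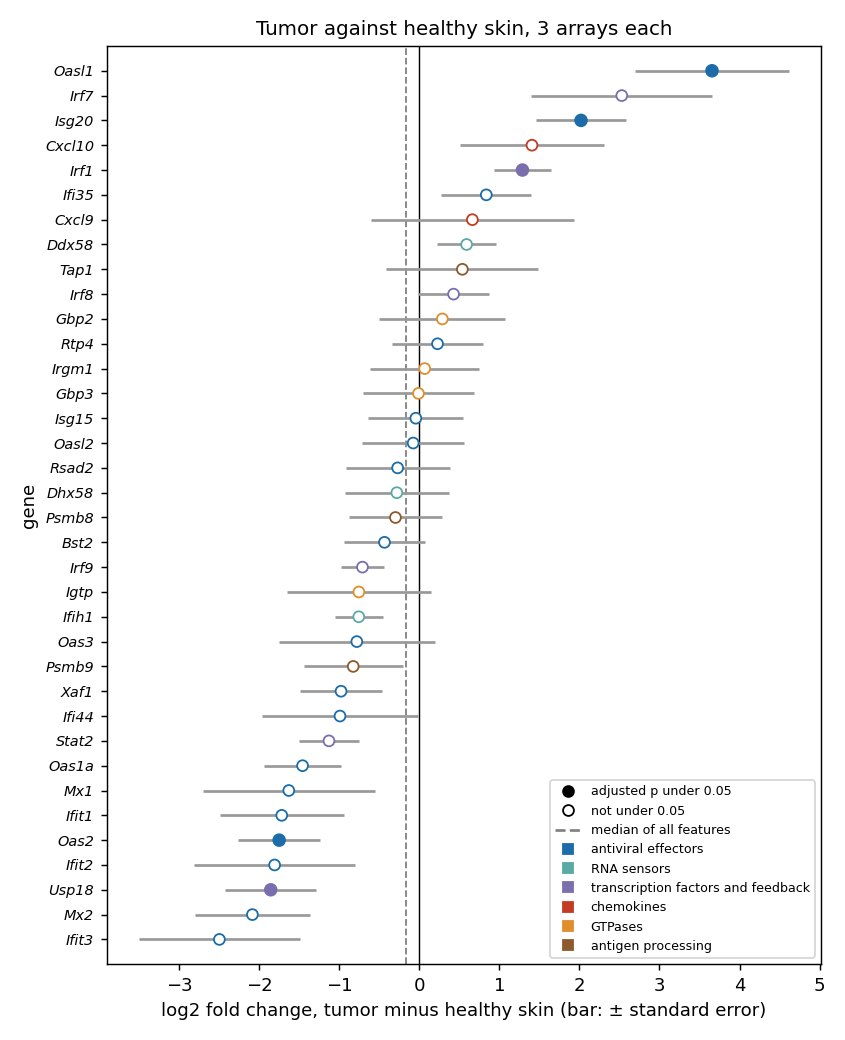
Log2 fold change of each member, tumor minus healthy skin (x axis), with its standard error, for the 36 genes tested (y axis); filled points passed an adjusted p of 0.05 and the dashed line is the median of all features at -0.16. Estimates run from -2.50 for Ifit3 to 3.66 for Oasl1, and 5 points are filled.

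Among the antiviral effectors, which degrade, bind or block viral RNA and proteins, 2 of 18 were higher, 1 was lower and 15 did not pass. Their median log2 fold change was -0.88. Oasl1, a relative of the oligoadenylate synthetases that restrains translation of Irf7, read 3.28, -0.43 and -0.26 in healthy skin 1, 2 and 3 and 5.20, 4.36 and 3.99 in tumors 1, 2 and 3 (probe A_55_P2086433, mm9 chr5:115387861-115387920). All tumors lay above all healthy biopsies, although healthy skin 1 was much nearer to the tumors than the other healthy arrays were. The means were 0.86 ± 2.10 (SD, n = 3) and 4.52 ± 0.62 (SD, n = 3), a 12.6-fold difference (log2 3.66, SE 0.96, limma adjusted p = 0.030). Without healthy skin 1 the log2 difference was 4.87 with adjusted p = 0.0022. Leaving out any of the other arrays gave 3.01 to 3.92 and ended the call, with adjusted p between 0.053 and 0.098.

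Isg20, an exonuclease that degrades single-stranded RNA, read 1.51, 1.96 and 2.60 in healthy skin and 4.92, 2.85 and 4.36 in tumors (probe A_66_P112573, mm9 chr7:86065136-86065195). The lowest tumor, tumor 2, was only slightly above the highest healthy array. The means were 2.02 ± 0.55 and 4.05 ± 1.07 (SD, n = 3 each), a 4.06-fold difference (log2 2.02, SE 0.57, limma adjusted p = 0.037). Isg20 was the only antiviral effector that was not highest on healthy skin 1 among the healthy arrays. A dimmer probe of Isg20 gave a log2 difference of 0.64 (SE 0.42) that did not pass, with adjusted p = 0.28 in a limma fit of every probe. The call was kept without tumor 2 (adjusted p = 0.012) and lost without any other array (0.054 to 0.099).

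Oas2, an oligoadenylate synthetase that makes the activator of RNase L, was lower in tumors. It read 3.34, 1.59 and 2.17 in healthy skin and 0.026, 0.65 and 1.17 in tumors (probe A_55_P2019719, mm9 chr5:121180343-121180402). Every tumor was below every healthy array, with a gap of less than 1 log2 unit between the nearest of them. The means were 2.36 ± 0.89 and 0.61 ± 0.57 (SD, n = 3 each), so healthy skin was 3.36-fold higher (log2 fold change -1.75, SE 0.51, limma adjusted p = 0.042). The call was lost with median scaling (-1.57, adjusted p = 0.055) and with spike-in scaling (-0.86, adjusted p = 0.49). It held without healthy skin 2 (adjusted p = 0.037) and was lost without any other array (0.050 to 0.118).

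Mx2 and Oas1a had groups that did not overlap, both with lower values in tumors, and missed the test. Mx2, a dynamin-like GTPase that blocks viral replication, read 0.97, -1.57 and -0.42 in healthy skin and -3.49, -1.64 and -2.13 in tumors, with the value of tumor 1 not well above background (log2 fold change -2.08, SE 0.72, limma adjusted p = 0.070). Healthy skin 2 and tumor 2 nearly touched, and without healthy skin 2 Mx2 was called (-2.70, adjusted p = 0.040). Oas1a read 4.35, 3.47 and 3.75 against 1.43, 3.08 and 2.68 (log2 fold change -1.46, SE 0.48, adjusted p = 0.061). Its probe also lists the accession of Oas1g, and a second probe of Oas1a gave 0.34 (SE 0.90, adjusted p = 0.80 in the fit of every probe), so the direction differed between the probes.

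Ifit3, an effector that works with its relative Ifit1 on foreign RNA, had the lowest estimate of all members and did not pass; it is described because of that estimate, not by the rule for named genes. It read 2.39, -1.73 and -0.45 in healthy skin and -3.43, -1.69 and -2.14 in tumors. The value of healthy skin 1 was far above the other 5, and tumor 2 was level with healthy skin 2. The log2 fold change was -2.50 (SE 1.001, limma adjusted p = 0.105), -1.34 without healthy skin 1, and -3.40 without healthy skin 2, where it was called (adjusted p = 0.046). The remaining antiviral effectors ranged from -1.81 for Ifit2 to 0.84 for Ifi35 in their estimates, none of them passing.

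Isg15, a ubiquitin-like protein that is conjugated to other proteins, had one of the smallest differences. It read 4.67, 2.54 and 2.46 in healthy skin and 3.04, 3.48 and 3.02 in tumors (log2 fold change -0.042, SE 0.59, limma adjusted p = 0.96). The tumors were close together and healthy skin 1 stood above all of them, with the other healthy arrays below. A second probe gave 0.78 (SE 0.82) with the same order of arrays at the top of each group. Without healthy skin 1 the estimate turned to 0.68, and with spike-in scaling to 0.85.

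Of the 3 RNA sensors, which detect viral RNA in the cytoplasm, none passed. Ifih1, also known as MDA5, read 1.13, 0.64 and 0.61 in healthy skin and -0.28, 0.22 and 0.17 in tumors. Its groups did not overlap, with all tumors lower (log2 fold change -0.76, SE 0.30, limma adjusted p = 0.101), and the sign turned with spike-in scaling (0.14). Ddx58, the gene of RIG-I, read 1.17, 0.038 and 0.86 against 0.99, 1.42 and 1.43 (0.59, SE 0.36, adjusted p = 0.26), while its dimmer probe, well above background on 2 of the 3 tumors, gave -0.35 (SE 0.32). Dhx58, a related regulator, was at -0.28 (SE 0.65).

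Among the 6 transcription factors and feedback regulators, 1 was higher, 1 was lower and 4 did not pass. Irf1, a factor induced by interferon-gamma and by inflammatory signals, read 2.84, 2.93 and 3.08 in healthy skin and 4.16, 4.86 and 3.70 in tumors (probe A_55_P2000062, mm9 chr11:53590746-53590805). The healthy arrays were nearly equal and all tumors were above them. The means were 2.95 ± 0.12 and 4.24 ± 0.58 (SD, n = 3 each), a 2.44-fold difference (log2 1.29, SE 0.35, limma adjusted p = 0.034). Irf1 passed without tumor 3 (adjusted p = 0.028) and did not without any other array (0.057 to 0.104); the estimate was 0.98 without tumor 2. With spike-in scaling the adjusted p was 0.059.

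Usp18, which removes Isg15 from proteins and dampens type I interferon signalling, read 1.12, -0.51 and 0.32 in healthy skin and -2.53, -0.79 and -1.31 in tumors (probe A_55_P2114953, mm9 chr6:121220874-121220933). The groups came close, at healthy skin 2 and tumor 2, without overlapping. The means were 0.31 ± 0.82 and -1.54 ± 0.89 (SD, n = 3 each), 3.62-fold higher in healthy skin (log2 fold change -1.85, SE 0.57, limma adjusted p = 0.049). The call was kept without healthy skin 2 (adjusted p = 0.043) or tumor 2 (0.049) and lost without healthy skin 1, healthy skin 3, tumor 1 or tumor 3 (0.084 to 0.125). It was also lost with median scaling (-1.68, adjusted p = 0.064) and spike-in scaling (-0.96, adjusted p = 0.44).

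Stat2 and Irf9, partners in the complex that binds the response element, both had lower values in tumors with groups that did not overlap, and both missed the test. Stat2 read 2.50, 1.87 and 2.34 in healthy skin and 0.53, 1.69 and 1.11 in tumors (log2 fold change -1.13, SE 0.37, limma adjusted p = 0.063). Irf9 read 2.56, 2.65 and 2.79 against 1.83, 2.22 and 1.84 (-0.71, SE 0.27, adjusted p = 0.089). Both were called in the authors' deposited values when these were fitted in the same way, and with spike-in scaling the estimate of Irf9 turned to 0.18. Irf7, which amplifies the type I response, was not named by the rule and read 0.84, -2.28 and -3.08 in healthy skin and 1.55, 2.28 and -0.76 in tumors. Its groups overlapped through healthy skin 1 (log2 fold change 2.53, SE 1.13, adjusted p = 0.136), and without that array it was 3.70 and was called.

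**Figure D3:**
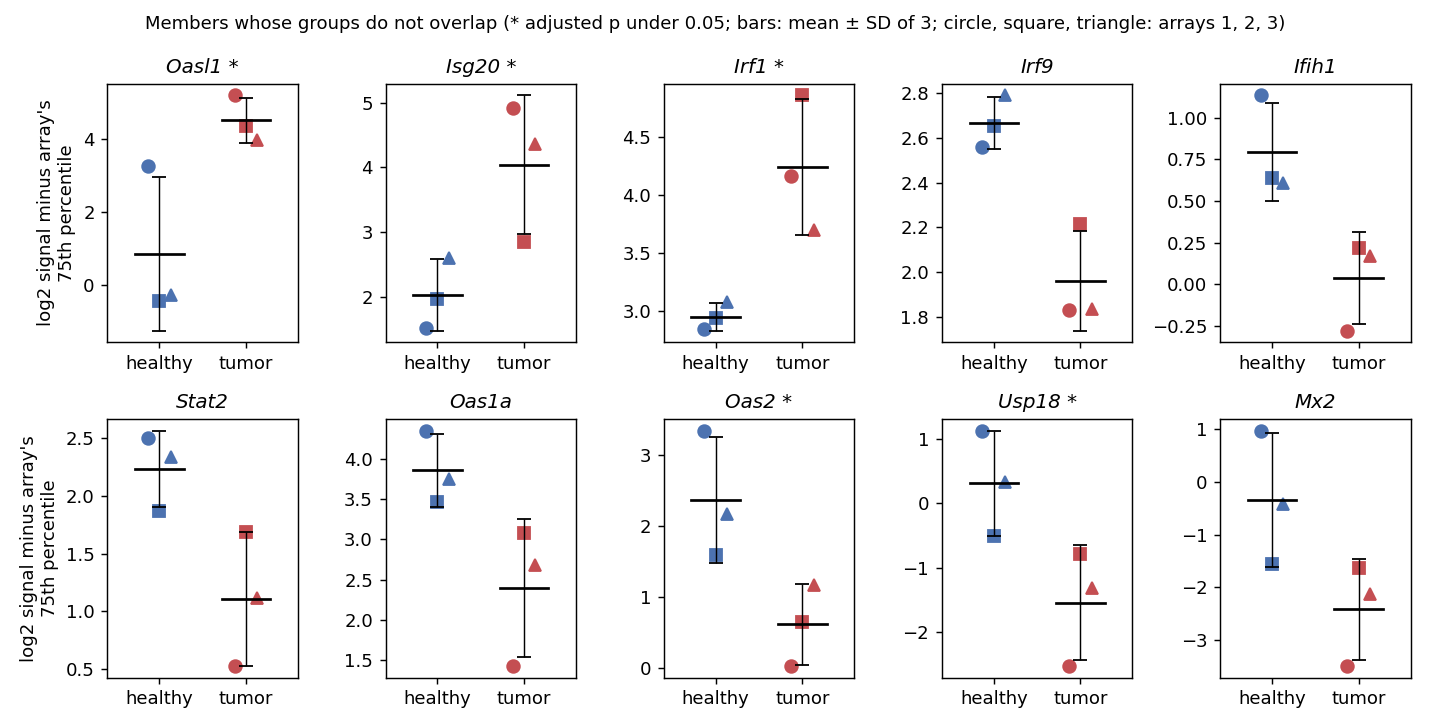
Log2 signal relative to the array's 75th percentile (y axis) for the 10 members whose healthy skin and tumor arrays do not overlap, 3 arrays a group, with the mean and SD; circles, squares and triangles are arrays 1, 2 and 3. Asterisks mark the 5 that passed, of which Oasl1, Isg20 and Irf1 are higher in tumors and Oas2 and Usp18 lower; the healthy circle lies highest of the healthy arrays in 7 of the panels.

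None of the chemokines (2), GTPases (4) and antigen processing genes (3) passed, and the healthy and tumor arrays overlapped for all 9. Cxcl9, which draws T cells through the receptor Cxcr3, read -0.58, -1.22 and -1.52 in healthy skin and -1.25, 2.78 and -2.85 in tumors. A single tumor was far above the healthy arrays, another was below them, and the log2 fold change was 0.66 (SE 1.27, limma adjusted p = 0.72). Cxcl10, a ligand of the same receptor, read -0.048, -0.67 and -2.47 against -0.31, 2.19 and -0.84 (1.41, SE 0.90, adjusted p = 0.27). Its dimmer probe was well above background on only 2 healthy arrays and 1 tumor, so its difference is not read.

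The smallest estimates among the GTPases were those of Gbp3 and Irgm1, both from families that act against intracellular pathogens. Gbp3 read 0.81, 0.18 and -0.27 in healthy skin and -1.06, 1.77 and -0.013 in tumors (log2 fold change -0.0094, SE 0.69, limma adjusted p = 0.99). Irgm1 read 1.89, 1.48 and 0.48 against 0.53, 2.87 and 0.66 (0.068, SE 0.68, adjusted p = 0.95). In both genes tumor 2 was the highest of the 6 arrays while the other tumors were at the low end of the healthy range or under it, and the sign of the estimate depended on the setting. Psmb8 and Psmb9, subunits of the immunoproteasome, and Tap1, a subunit of the peptide transporter, had estimates of -0.30 (SE 0.58), -0.82 (SE 0.62) and 0.54 (SE 0.95). Psmb9 read 3.15, 3.43 and 3.08 in healthy skin and 1.58, 3.92 and 1.68 in tumors, and it was called when tumor 2 was left out.

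Many members also differed strongly between biopsies of the same group. Healthy skin 1 held the highest value of the healthy arrays for 29 of 36 members (80.6%), against 18.0% of all features, and tumor 2 the highest of the tumors for 29 of 36 (80.6%), against 28.1%. Both held for 24 members. On healthy skin 1 the excess was larger in the antiviral effectors, and on tumor 2 it was larger in the chemokines, GTPases and antigen processing genes. These are 1 biopsy each, so no test between conditions applies.

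**Figure D4:**
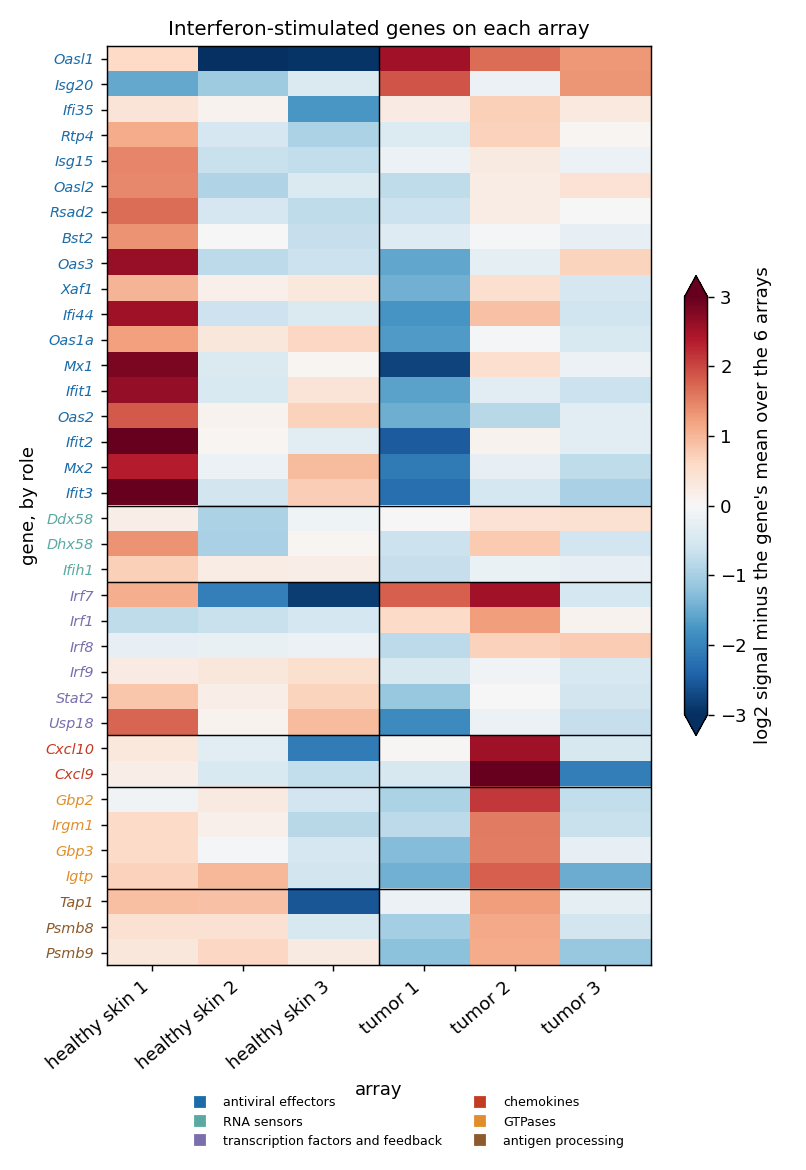
Log2 signal of each member on each array minus the gene's mean over the 6 arrays (colour), for the 36 genes tested (rows, grouped by role and coloured likewise) and the 6 arrays (columns). The antiviral effectors are reddest on healthy skin 1, the highest healthy array for 17 of 18, and the 9 chemokines, GTPases and antigen processing genes on tumor 2, the highest of all arrays for 9 of 9.

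On healthy skin 1, 17 of 18 antiviral effectors were the highest of the healthy arrays, and 15 of 18 were above all 5 other arrays, tumors included, as were 7.5% of all features. The median excess of the antiviral effectors over the mean of the other healthy arrays was 2.13 log2 units, or 4.37-fold, against 0.79 for the chemokines, GTPases and antigen processing genes and -0.18 for all features. Oasl1 had the highest excess, 3.63 log2 units, and Ifit3 was 11.2-fold, Ifit2 8.82-fold, Ifi44 8.39-fold and Mx1 8.12-fold above the other healthy arrays. Ifit1 read 1.16 on healthy skin 1 and -1.92 and -1.08 on the others, and Rsad2, the antiviral enzyme viperin, read 0.069 against -2.12 and -2.38. Outside the effectors, Irf7 was 11.5-fold higher there, and Dhx58, 1 of the 3 sensors, 3.49-fold. The factors Irf1, Irf8 and Irf9 differed by at most 0.17 log2 units from the other healthy arrays.

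On tumor 2, the 2 chemokines, 4 GTPases and 3 antigen processing genes were above all 5 other arrays, where 11.7% of all features were. Their median excess over the mean of the other tumors was 2.31 log2 units, or 4.95-fold, against -0.02 for all features. Cxcl9 was 28.4-fold and Cxcl10 6.78-fold above the other tumors. Igtp, a GTPase of the immunity-related family, read 3.81 against 0.59 and 0.55 and was 9.45-fold higher, and Gbp2 read 3.96 against 0.90 and 1.10 and was 7.77-fold higher. The antigen processing genes were 2.80- to 4.91-fold higher. The antiviral effectors had a median excess of 0.68 on tumor 2, and 13 of 18 were highest there among the tumors. Isg20 went the other way, 3.46-fold lower on tumor 2 than on the other tumors.

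**Figure D5:**
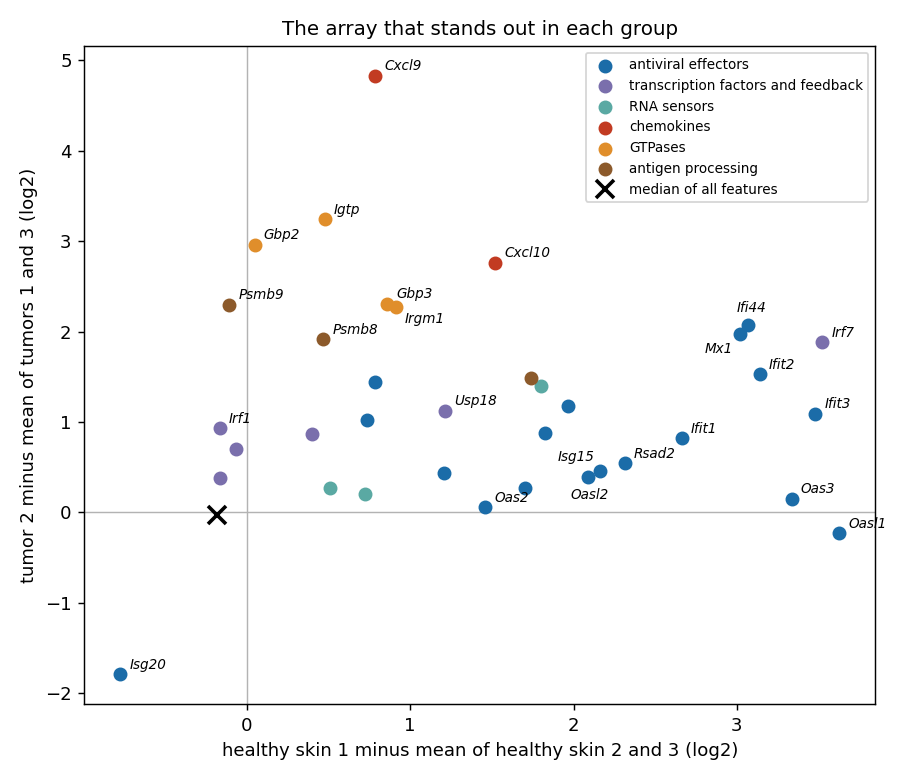
For each of the 36 members tested, the excess of healthy skin 1 over the mean of the other healthy arrays (x axis, log2) and of tumor 2 over the mean of the other tumors (y axis, log2), coloured by role; the cross is the median of all features at -0.18 and -0.02. Antiviral effectors spread along the x axis up to 3.63 (Oasl1), while chemokines and GTPases lie high on the y axis, up to 4.83 (Cxcl9).

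After the group mean was taken from each gene, the mean pairwise Pearson correlation was 0.63 among the 18 antiviral effectors and 0.86 among the 9 chemokines, GTPases and antigen processing genes. It was 0.36 between these sets, 0.77 among the 3 RNA sensors and 0.43 among the 6 factors and feedback regulators. All 36 members gave 0.51 and all features 0.039. Several other lists gave values as high, 0.95 for adipocyte, 0.86 for leukocyte, 0.66 for hair, 0.62 for macrophage, 0.58 for fibroblast and 0.54 for class I presentation genes. The correlations describe 6 arrays that share their group means and scaling, so they carry no test. Second probes, which were not used for these values, gave a check on the same arrays: of 8 tested, 6 were highest on healthy skin 1 and 6 on tumor 2 within their group. Both counts include the dimmer Cxcl10 probe and the tumor 2 count a dim Xaf1 probe, each well above background on only 3 arrays.

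Other genes moved with healthy skin 1. A list of hair shaft and root sheath genes, chosen after its values were seen, was highest there among the healthy arrays for 18 of 20, with a median excess of 5.57 log2 units. Its summed signal, relative to the array's 75th percentile, was 718 on healthy skin 1, 67.5 and 64.6 on the other healthy arrays and 56.8 to 165 on the tumors. Macrophage markers were highest there for 6 of 10, with summed signals of 51.2 against 47.5 and 32.7 on the other healthy arrays and 34.6 to 105 on the tumors. Of 5 genes listed as markers of plasmacytoid dendritic cells (Siglech, Ccr9, Tcf4, Ly6d and Pacsin1), 0 were highest there. Their summed signals were 365 against 400.3 and 689 on the other healthy arrays and 230.0 to 322 on the tumors. Not all of these genes are limited to such cells, so the sums do not measure how many were present. Of the 9 ligand genes tested, including Ifng, only Ifna12 was highest there among the healthy arrays. The part of hair or of other cells in the excess of the antiviral effectors was not tested.

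Other genes moved with tumor 2 as well. Ifng, the gene of interferon-gamma, read -4.54, -1.57 and -5.63 in tumors 1, 2 and 3, and all healthy arrays fell short of the background test for it. Ifng thus entered the fit through the tumor arrays, and the fit did not call it (limma adjusted p = 0.13, measured means -6.05 in healthy skin and -3.91 in tumors). Against the lowest signals well above background on the healthy arrays (mean -4.88), the tumor mean was at least 1.95-fold higher, a bound that rested on tumor 2. Without tumor 2 the tumor mean was -5.09, below that level. Markers of T and natural killer cells were highest on tumor 2 among the tumors for 7 of 10, with summed signals of 11.9 against 13.9 and 10.7 on the other tumors and 13.5 to 33.9 on healthy skin. Gzmb, a cytotoxic granule protease, had the largest excess of that list. It read -0.77 on tumor 2, -3.21 on tumor 3 and -5.56 on tumor 1, where it was not well above background, and the median excess of the list was 0.96 with a lowest value of -0.52. Macrophage and neutrophil markers were highest on tumor 2 for 0 of 10 and 0 of 7, with summed signals of 46.5 (others 34.6 and 105) and 141 (others 152 and 154). Skeletal muscle markers (5 of 5, summed signal 44.3 against 31.0 and 17.6) and adipocyte markers (4 of 4, 192 against 173 and 64.1) were also highest on tumor 2. The part of these cells in the excess was not tested.

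The rest of the interferon pathway was read from lists of named genes. Of 14 class I presentation genes, 13 were highest on tumor 2 among the tumors, with a median excess of 0.82 log2 units, and 1 of 14 passed the test of tumor against healthy skin. That was Nlrc5, the activator of class I genes, at 3.18, 3.50 and 3.79 in healthy skin and 0.019, 2.23 and 0.66 in tumors (log2 fold change -2.52, SE 0.56, limma adjusted p = 0.017). Of 9 interferon genes tested, 1 was higher in tumors, Ifna1 (1.70, SE 0.49, adjusted p = 0.040). None of 10 receptor and kinase list genes passed; Il10rb, a receptor chain, had an adjusted p of 0.24 and Ifngr1, a chain of the interferon-gamma receptor, of 0.34. Of 8 inhibitors of interferon signalling, Socs3, a feedback inhibitor of cytokine receptors, was higher (1.40, SE 0.33, adjusted p = 0.022) and 7 did not pass.

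Of 15 nucleic acid sensing genes, 2 were higher in tumors and none lower. Myd88, the adaptor of Toll-like and interleukin-1 receptors, read 1.55, 1.57 and 1.12 in healthy skin and 3.001, 2.28 and 2.89 in tumors (log2 fold change 1.31, SE 0.31, limma adjusted p = 0.023). Trim25, the ubiquitin ligase that activates RIG-I, was at 1.40 (SE 0.38, adjusted p = 0.034). Of 56 further interferon-stimulated genes, 3 were higher and 8 lower, 11 in all (19.6%) beside the 25.9% of all features. Gbp6, a guanylate-binding protein, was 14.9-fold higher in healthy skin (-3.90, SE 0.75, adjusted p = 0.010). Oas1f, from the oligoadenylate synthetase cluster, was at -3.33 (SE 0.44, adjusted p = 0.0028) and Ifi27l2a at -3.17 (SE 0.46, adjusted p = 0.0036). Of these 56 genes, 30 were highest on healthy skin 1 among the healthy arrays and 36 on tumor 2 among the tumors.

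The calls among members were sensitive to single arrays. The number of members called was 2, 4 and 0 without healthy skin 1, 2 and 3, in that order. It was 0, 3 and 1 without tumor 1, 2 and 3. Over all features these fits called 3840 to 5458, where the fit of all 6 arrays called 6420. The loss of calls was thus not limited to the members. In these fits 6 to 13 members had an unadjusted limma p under 0.05, with no count over all features beside it. Without healthy skin 1 and tumor 2 together, chosen after the data were seen, Oasl1, Isg20 and Irf7 were called, all higher in tumors. Without the dim healthy skin 3 and the high-background tumor 1 only Irf8 was called. With quantile normalization, Isg20 alone of the 5 passed (adjusted p = 0.049). The fits with slide row as a block or within the second row set healthy skin 3 alone against the tumors, with that lone array assumed to vary like the others. In them Oasl1 (adjusted p = 0.047 and 0.020) and Ifi35 passed, with Tap1 in the block fit, and the calls of the other 4 members were lost. With no detection filter none of the 5 passed (0.062 to 0.098), and Isg20 did not with the mean of its probes (0.076). Among the 24757 features, 2553 passed as higher in tumors and 3867 as lower; median scaling gave 3187 and 3100 and spike-in scaling 1897 and 781.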

How the data were processed

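Agilent Feature Extraction 10.7.3.1 produced the spot intensity values that were deposited, per the file headers; the authors' series table holds log2 values whose order matched the median spot signals and whose centring is not stated (column medians 6.33 to 6.35). Limma is named per the submitters' processing notes. Array annotation is on mm9. From the processed intensity of each of 6 arrays (59305 spots, controls left out), log2 was taken, the 75th percentile of the array was subtracted and spots of a probe were averaged. Probes flagged well above background on 3 or more arrays entered the fit (34284), each gene being represented by its probe of highest mean. Tumor and healthy skin (3 arrays each) were compared with limma 3.58.1 (R 4.3.3), called at a Benjamini-Hochberg adjusted p under 0.05 over all 24757 features; the small number of arrays limits precision. The fit was tested on simulated data. Members and lists were chosen with earlier results of these data known. Named were called members, the 3 with the smallest difference, those that did not overlap but missed the test, and those whose probes disagreed; in other lists, at most the 3 called with the largest difference, or of lowest adjusted p. Further genes are named for the array patterns, after their values were seen. Array numbers follow sample titles. They were not used to pair the groups in the main fit. One gene of the pathway lists is not reported here.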

Additional observations from a re-analysis of the deposited data

How the results depend on the processing

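The excess of the antiviral effectors on healthy skin 1 was 1.73 to 2.34 log2 units over 4 other scalings and sources of values, and 2.17 to 2.26 with another healthy array left out. That of chemokines, GTPases and antigen processing genes on tumor 2 was 2.21 to 2.34 and, with another tumor left out, 2.25 to 2.50. The calls moved more. Of the 36 members, 5 were called; 2 were with quantile normalization, spike-in scaling, array weights or slide row 2 alone, 3 with median scaling, slide row as a block or without healthy skin 1 and tumor 2, 1 without healthy skin 3 and tumor 1, 0 with no detection filter (9 at an unadjusted limma p under 0.05), and 0 to 4 with a replicate left out. The row fits set healthy skin 3 alone against the tumors. The cause of these differences was not tested. The replicate numbers were not taken to pair the samples in the main fit. Deviations of same-numbered arrays from their group means correlated at 0.10, 0.13 and -0.083. Differently numbered arrays were not compared, so these values cannot decide whether samples were paired. With the replicate block 3 members and 5470 features were called. The members' median was 0.60 with spike-in scaling and -0.80 to 0.29 with a replicate left out. Over all features 6420 were called, 2678 with spike-in scaling, 3920 with no detection filter, 9858 with array weights, 3355 without healthy skin 1 and tumor 2, and 3840 to 5458 with a replicate left out. Sign changes were followed only for the members named by the rule and for Irf7 and Ifit3. The other members were not followed and may have turned too. Among those followed, log2 fold changes that turned sign were those of Gbp3 (quantile 0.0072, median scaling 0.17, spike-in 0.88, normexp 0.13, array weights 0.47, both slide row fits 0.50, without healthy skin 3 and tumor 1 0.38, leave-one-out -0.78 to 0.64), Isg15 (median scaling 0.13, spike-in 0.85, normexp 0.051, mean of probes 0.37, both slide row fits 0.72, without healthy skin 1 and tumor 2 0.53, leave-one-out -0.42 to 0.68), Irgm1 (quantile -0.0035, without healthy skin 1 and tumor 2 -0.38, leave-one-out -0.69 to 0.48), Ifih1 (spike-in 0.14) and Irf9 (spike-in 0.18). On tumor 1, 5 members were not well above background, so their values there are less certain. Whether its background lowered the members was not tested.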

Other observations

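Features were ranked by the gap between healthy skin 1, or tumor 2, and the next highest array of the same group. On healthy skin 1, 18 of the first 30 and 48 of the first 100 were keratin or keratin-associated genes, led by Krtap6-2 and Krt25, and none was a member or belonged to the interferon lists. On tumor 2, the first 30 held the members Cxcl9, Igtp and Gbp2, and Cxcl9 was 4.03 log2 units above the next tumor. The first 100 held 6 members, 13 with the interferon lists, among them Tgtp2, an interferon-stimulated GTPase, at 4.09 and Ifng at 2.97. The features with the largest gap on tumor 2 were Clca1 (5.04), Csn3 (4.70) and Grik1 (4.37), which are on none of the lists.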
